A study of Saccharomyces cerevisiae with 6 samples.

Results

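The comparison described here was the change in active RNA polymerase II (RNAP II) between the G1 arrest and 30 min after release, as measured by genomic run-on (GRO) in budding yeast. It used 2 of the 6 samples of the series, GRO at 30 min and GRO at 0 min (START), each with 3 replicate hybridizations, which make 6 of the 34 hybridizations in all. The description of the sample at 30 min speaks of replicates 1 and 2 only, but it holds 3 run-on hybridizations, and all were used. The cells were BY4741 wild type carrying plasmid pRS316, arrested with alpha factor at 0 min, and at 30 min they had been washed free of the pheromone and kept in fresh medium. The other samples were GRO at 60 min, used here for the spread between replicates and for the later level, and RNAP II chromatin immunoprecipitation (RNAp ChIP, total RNAP II) at 0, 30 and 60 min.

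Members were the spots of the macroarray, a nylon filter on which whole open reading frames were printed as probes. The study also speaks of spots of ribosomal DNA (rDNA), and any among the members could not be picked out. A spot was kept when its run-on and genomic DNA intensities both exceeded 0 in 2 or more replicates at each time, which 5738 of the 6144 spots did. Its level was log2 of the run-on intensity over the genomic DNA intensity of the same spot on the same filter, centred on the median of the hybridization. All changes are therefore relative to the median spot, and a change in total transcription cannot be read from them. The files give spots by array position and pair none with a gene, so spots are named by row, column and position within a block, and genes known to mark the G1 arrest were not analysed here.

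In run-on assays, cells are permeabilised with sarkosyl, a detergent that stops new initiation while polymerases already engaged on genes resume elongation. The labelled nucleotide they add marks the amount of active RNAP II on each gene. Alpha factor is the mating pheromone of the opposite mating type. It switches on mating genes and holds cells in G1 before START, and its removal lets cells bud, replicate DNA and progress towards mitosis, with waves of periodic transcription along the way. Polymerases that have backtracked stay on the gene without contributing to the run-on signal, so that total and active RNAP II can differ. In these bulk cultures, a change in activity within each cell and a change in the number of cells at a stage cannot be told apart.

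The median intensity of the run-on hybridizations was 47.4, 44.3 and 35.7 at 30 min, against 45.2, 56.7 and 63.1 at 0 min, with averages of 42.5 ± 6.0 at 30 min and 55.0 ± 9.1 at 0 min (SD, n = 3 each). An exact two-sided permutation test of this difference gave p = 0.2, where the smallest possible is 0.1. Between 182 and 215 spots were listed at 0 intensity in a hybridization at 30 min, and between 95 and 232 at 0 min. The levels of replicates of one time correlated across spots at r = 0.740 to 0.801 over the 6 pairs. The study speaks of separate experiments, but nothing ties a hybridization to one of them, so p-values here measure the spread between hybridizations, which may be partly technical.

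For most spots, the run-on level at 30 min was close to that at 0 min. The median change was -0.01 and the middle of the distribution lay between -0.48 and 0.41 on the log2 scale (25th and 75th percentiles). The change was under 0.5 in size in 3156 spots (55.0%) and under 1, which is less than 2-fold, in 4772 spots (83.2%). The near-even split of 2836 spots above and 2902 below 0 is set by the centring on the median.

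The tails were unequal, and the longer one was on the side of decrease. The 1st and 99th percentiles were -2.61 and 1.86, and the 5th and 95th were -1.50 and 1.13. A fall of more than 1 was found in 578 spots and a rise of more than 1 in 388. Past 2 the counts were 143 falls and 45 rises, and past 3 they were 36 falls and 11 rises. The skewness of the distribution was -0.72, and the extremes were -6.06 and 6.03.

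The width exceeded what the replicates alone would give. The SD of the change across spots was 0.850, against 0.629 expected from the spread between replicates of one spot. The median standard error of a change was 0.326, and the median SD between replicates was 0.341 at 30 min and 0.394 at 0 min. The 445 spots with fewer than 3 values at one of the times had an SD of 1.39, against 0.787 in the 5293 spots with 3 values at each. With 10 added to both intensities and values of 0 kept, which mutes dim spots, the SD dropped to 0.596.

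Of the 5738 spots, 294 (5.12%) changed at a threshold of 0.05 on limma's p-value, adjusted over all spots tested by the Benjamini-Hochberg method, 103 of them up (1.8%) and 191 down (3.33%). Without adjustment, 1281 spots had a p below 0.05. All 294 had values at 30 min that did not overlap those at 0 min, among 793 spots that were higher without overlap (13.8% of those tested) and 895 that were lower (15.6%). Size alone did not make a call, and 103 of the 188 spots that moved by more than 2 did not pass. The smallest rise that passed was 0.83 and the smallest fall was -0.91, and 16 of the called spots moved by less than 1.

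**Figure D1:**
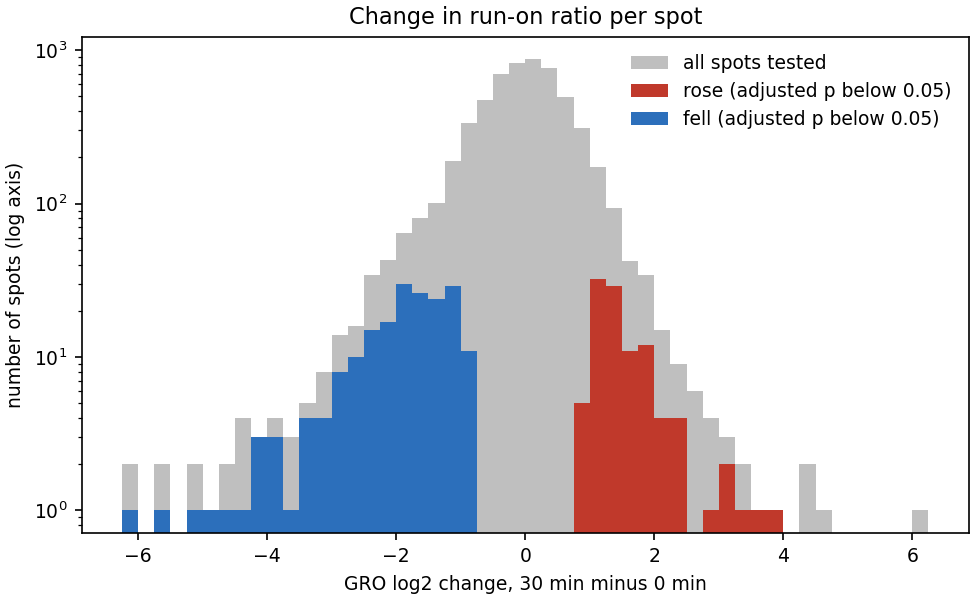
Histogram of the GRO log2 change per spot, 30 min minus 0 min, for the 5738 spots tested (grey), with the 103 spots that rose (red) and the 191 that fell (blue) drawn over it; the vertical axis is a log axis. The left tail is longer, with 143 spots below -2 against 45 above 2, and many grey spots in both tails were not called.

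The number of calls was sensitive to the hybridizations used. A fit of the 6 hybridizations at 30 and 0 min alone, with fewer residual degrees of freedom, called 82 spots, 22 up and 60 down, of which 80 were among the 294. A block for the replicate number gave 138 calls, 34 up and 104 down, 129 of them shared. Leaving out replicate 1, 2 or 3 at 30 min gave 145, 116 and 115 calls, and leaving out replicate 1, 2 or 3 at 0 min gave 148, 108 and 183. More spots fell than rose in each of these fits. Adding 10 to the intensities gave 246 calls, of which 60 were up and 186 down, a smaller share up (24.4%) than without it (35.0%).

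The spots that rose were mostly of low run-on level at the arrest and reached a moderate level after release. The levels given are those that made the calls. Such a choice favours a low level at 0 min in risen spots and a high one in fallen spots. Their median level in the 3 replicates was 0.19, 0.39 and 0.32 at 30 min, against -1.13, -1.18 and -0.98 at 0 min. The median change was 1.41, with a middle range of 1.17 to 1.75 and a largest rise of 3.81. Of the 103, 68 stood above the median spot at 30 min and 15 at 0 min.

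The spots that fell were mostly of high level at the arrest. Their median level was -0.99, -1.02 and -0.87 at 30 min, against 0.81, 0.86 and 0.86 at 0 min. The median change was -1.81, with a middle range of -2.32 to -1.36 and a largest fall of -6.02. Of the 191, 46 stood above the median spot at 30 min and 131 at 0 min. The median fall thus exceeded the median rise in size. The called spots are part of the whole distribution, so this is not separate from the inequality of its tails.

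At 60 min, most of these spots stood between their levels at 0 and 30 min. The hybridizations at 60 min took no part in the difference, but they entered the fit that called the spots. Replicate 2 at 60 min was also on the same filter, F6, as replicate 3 at 0 min. The levels at 0 and 60 min are therefore not fully independent. The median level of the risen spots was -1.10, 0.30 and -0.39 at 0, 30 and 60 min. That of the fallen spots was 0.78, -0.91 and -0.46. The level at 60 min lay between those at 0 and 30 min in 93 of the 103 risen spots and in 144 of the 190 fallen spots with a value, against 2313 of the 5731 tested spots with one. It lay beyond the 30 min level in 5 risen and 37 fallen spots, and back beyond the 0 min level in 5 and 9. Spots picked for a large difference tend to lie nearer the middle in any further measurement, and no test was made of these counts.

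Only 4 spots are named, since none could be tied to a gene. They are the largest rises and falls among the 14 spots (4 up, 10 down) with 3 values at each time, no overlap, an adjusted p below 0.05 both with and without filter F1, and a genomic DNA signal outside the dimmest 25%. Their values stand here for the shape of a clear change.

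Spot R13 - C19 : 4 (row 13, column 19, position 4) had the largest rise of these 14. Its level was 1.75, 1.90 and 2.14 at 30 min, against -0.94, -2.29 and -1.77 at 0 min. All 3 values at 30 min were among the high levels of the array, and all 3 at 0 min were well below the median spot, with the value on filter F1 the least low of them. The change was 3.60 (SE 0.33), 12.1-fold, with an adjusted p of 0.00259 in limma. At 60 min the level was 1.22 ± 0.12 (SD, n = 3), below that at 30 min and far above that at 0 min.

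Spot R4 - C5 : 15 showed the same course at a lower level. It stood at 1.14, 0.85 and 1.41 at 30 min, against -1.50, -2.16 and -2.01 at 0 min, again with the value on filter F1 the least low at 0 min. The change was 3.02 (SE 0.31), 8.12-fold, with an adjusted p of 0.00308 in limma. Its level exceeded that of 84.5% of spots at 30 min, against 6.08% at 0 min. At 60 min the level was 1.45, 0.63 and 0.70, with a mean of 0.93 ± 0.45 (SD, n = 3). That mean lay within the range of the values at 30 min, but none of the single values did.

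Spot R15 - C17 : 7 had the largest fall of these 14. Its level was -3.09, -5.36 and -4.99 at 30 min, against 1.75, 1.55 and 1.32 at 0 min. The run-on intensities behind these levels were 6.17, 3.33 and 3.01 at 30 min, against 173, 331 and 201 at 0 min, so that its level at 30 min exceeded that of only 1.05% of spots, while its genomic DNA was above the filter's median on all 5 filters. The change was -6.02 (SE 0.59), with an adjusted p of 0.0057 in limma. The size of such a fall depends on the background subtracted from a few units of intensity. At 60 min the spot was listed at 0 in all 3 hybridizations.

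Spot R11 - C6 : 6 fell and then recovered in part. It stood at -2.02, -1.51 and -2.34 at 30 min, against 2.47, 2.36 and 2.65 at 0 min. At 60 min it was at 1.71 ± 0.49 (SD, n = 3), with all 3 values below those at 0 min. The change between 0 and 30 min was -4.45 (SE 0.31), with an adjusted p of 0.00132 in limma, the smallest of all spots. On filter F1 alone it was -4.48, and on the other filters -4.43. The SD between replicates was 0.42 at 30 min and 0.15 at 0 min, so that the change was far larger than the spread at either time and alike on both sets of filters.

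**Figure D2:**
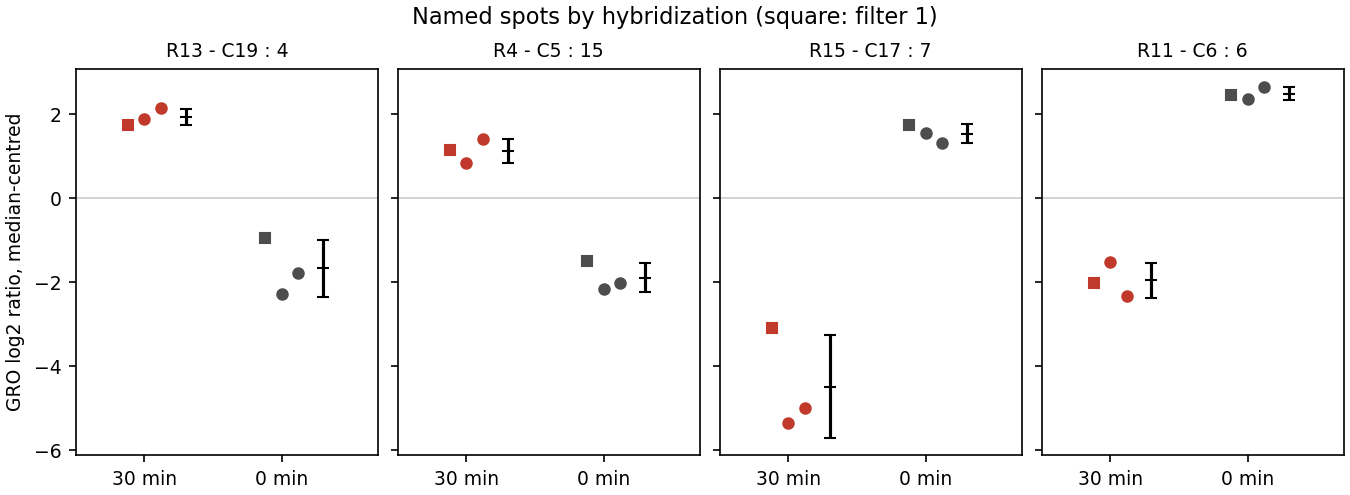
GRO log2 level, median-centred, of the 4 named spots in each hybridization, 30 min left of 0 min in each panel; squares are the hybridizations on filter F1, circles those on other filters, and bars show the mean and SD (n = 3). The groups do not overlap in any panel, and the gap between them ranges from 3.02 to 6.02 in the means.

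The change was set against the level at the start. This ranking uses the same values at 0 min that enter the change, so a downward course is partly built in. With the spots in 10 equal groups by their mean level at 0 min, the median change was 0.22 in the lowest group and 0.31 in the next. It then decreased through 0.21, 0.13, 0.08, -0.02, -0.10, -0.21 and -0.33 to -0.55 in the highest group. The share of spots above 0 was 59.6% in the lowest group and 67.9% in the next, and 23.2% in the highest.

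The calls were split in the same way, with falls at the top and both directions at the bottom. In the highest group 2 spots rose and 52 fell, and in the group below it 2 rose and 34 fell. In the lowest group 38 rose and 25 fell, and in the next 24 rose and 5 fell. The middle groups held few of either, such as 6 rises and 9 falls in the fifth. Changes also varied most at both ends, with an SD of 1.23 in the lowest group, 1.06 in the highest and 0.631 in the fourth.

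A ranking by the level at 0 min is not independent of the change, because an error in that level enters the change with the opposite sign. Rankings on other hybridizations were therefore made. With spots ranked by replicate 1 at 0 min and the change taken from replicates 2 and 3 alone, the median was 0.17 in the lowest group and -0.33 in the highest. With spots ranked by replicates 2 and 3 at 0 min and the change taken on filter F1, it was 0.06 in the lowest group, 0.21 in the next and -0.33 in the highest. The decrease at the top was thus smaller than in the first ranking but present in both, while the lowest group on F1 was close to even, with 53.1% of spots above 0.

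Other rankings gave no steady course from bottom to top. By the mean of the levels at 0 and 30 min, the median change was -0.17 in the lowest group, where 40.8% of spots were above 0, 0.14 in the third and -0.14 in the highest. By RNAp ChIP at 0 min, which shares no hybridization with GRO, it was -0.12 in the lowest group, 0.08 in the sixth and -0.16 in the highest. The called falls were still gathered at the top of the RNAp ChIP ranking. There 6 spots rose and 60 fell, 11.6% of that group against 5.12% of all spots. The rises were not gathered there, with 16 in the lowest group and 19 in the third.

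**Figure D3:**
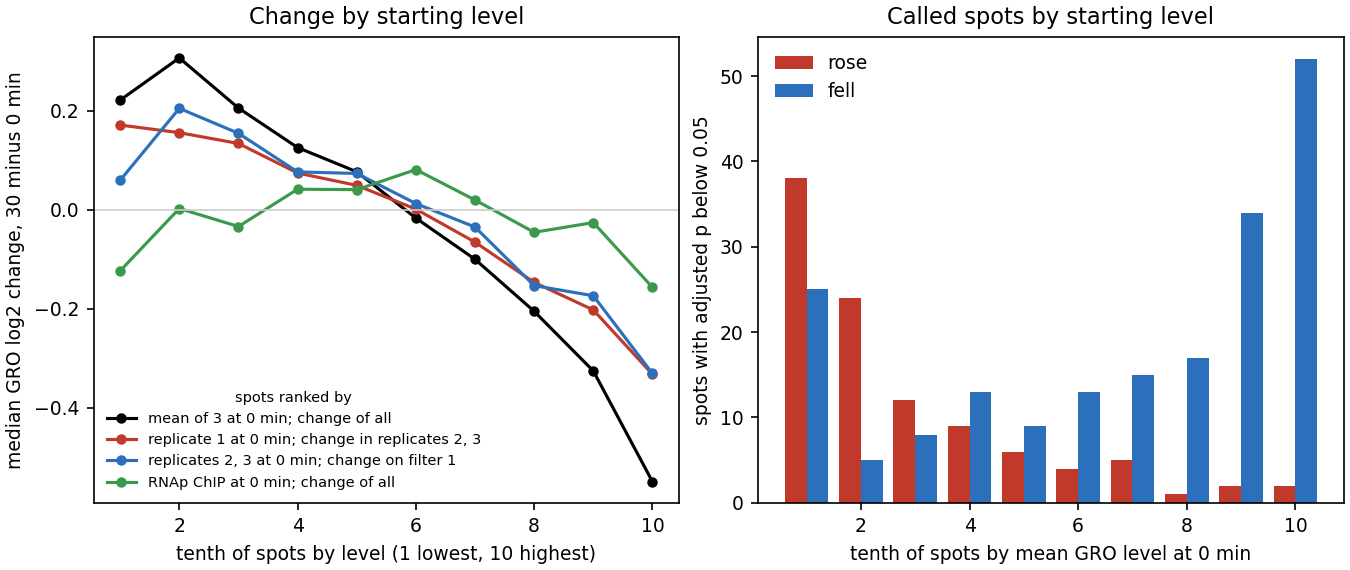
Left, median GRO log2 change (30 min minus 0 min) in 10 equal groups of spots, ranked from the lowest level (1) to the highest (10) by 4 different measures of the starting level. Right, number of spots that rose (red) and fell (blue) in each group of the ranking by mean GRO level at 0 min; the highest group held 2 rises and 52 falls.

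The middle range of levels across the array was narrower at 30 min. The interquartile range of the level was 1.47, 1.43 and 1.49 at 30 min, against 1.68, 1.58 and 1.54 at 0 min. Every value at 30 min was below every value at 0 min, and the means were 1.46 ± 0.03 and 1.60 ± 0.07 (SD, n = 3 each). The difference of -0.14 had a two-sided exact permutation p of 0.1, which is the smallest that 3 against 3 can give. The SD of the level, which the extreme spots weigh on, was 1.46 at 30 min and 1.47 at 0 min (exact permutation p = 0.7). Lower spread at 30 min was thus seen in the middle of the distribution and not in a measure that the tails enter.

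Calls were more frequent at spots with a bright genomic DNA signal. In the brightest of 10 equal groups by genomic DNA, 12 spots rose and 48 fell (10.5% called). In the dimmest group 1 rose and 4 fell (0.871%), although the changes there were wider, with an SD of 1.31 against 0.901. The median change was -0.30 in the dimmest group and -0.13 in the next. It was 0.09 in the ninth group and -0.09 in the brightest. The median residual SD between replicates was 1.15 in the dimmest group and 0.314 in the brightest. The dimmest 25% of spots held 9 of the 103 rises and 28 of the 191 falls. Without these spots, 486 of 4303 were called, 214 up and 272 down, which puts 44.0% of the calls on the side of increase.

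The same nylon filter, F1, carried replicate 1 at 30 min and replicate 1 at 0 min, so that 1 genomic DNA hybridization entered both times. Replicates 2 and 3 at 30 min were on filters F2 and F4, and those at 0 min on F3 and F6. The levels of the hybridizations on F1 correlated across spots at r = 0.836, against 0.631 to 0.695 for the other 8 pairs of a hybridization at 30 min and one at 0 min. Their difference had an SD of 0.839 across spots, against 1.14 to 1.25 for those 8 pairs. The change measured on F1 was thus less variable than those measured across filters. Without the division by genomic DNA the gap was narrower, with an SD of 0.846 on F1 against 0.990 to 1.26 for the 8 pairs. The pair on F1 also shares replicate number 1, and filter and number cannot be told apart in it.

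The same was seen after the mean of each time was removed. The deviations of the 2 hybridizations on F1 from the means of their times correlated at r = 0.496 across spots. Those of the 8 pairs on different filters correlated at -0.296 to 0.172. The correlation on F1 was larger without the division by genomic DNA, at 0.673 for run-on intensities alone (-0.487 to 0.344 in the other pairs). With the mean genomic DNA profile of the 7 filters it was also 0.673. The deviations of 3 hybridizations from their own mean sum to 0, so that a shared deviation on F1 lowers the values of the pairs with 1 member on F1, and these r values share hybridizations.

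**Figure D4:**
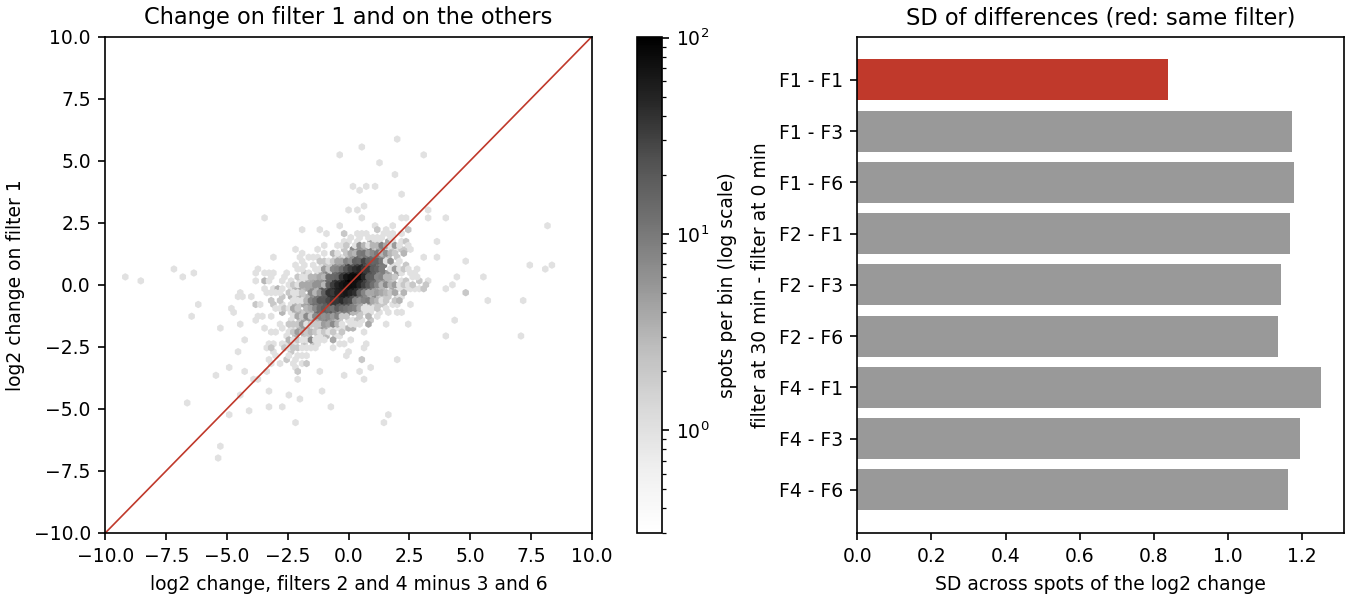
Left, GRO log2 change (30 min minus 0 min) on filter F1 against that on the other filters (F2 and F4 minus F3 and F6) for 5665 spots, as a density on a log scale with the line of equality. Right, SD across spots of the difference for each of the 9 pairs of a hybridization at 30 min and one at 0 min; the pair on F1 has 0.839 and the others 1.14 to 1.25.

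The change on F1 and the change on the other filters come from hybridizations that do not overlap, and they served as a check on each other. They correlated at r = 0.512 across the 5665 spots with both, and had the same sign in 4075 (71.9%). The 363 spots with a rise over 1 on F1 had a median of 0.88 on the other filters, and 89.5% of them were above 0 there, against 49.7% of all spots. Of these 363, 155 (42.7%) were over 1 on the other filters too, against 9.5% of all spots. The 525 spots with a fall over 1 on F1 had a median of -1.11 elsewhere, and 287 of them (54.7%) were under -1 there, against 12.4% of all spots. Most spots past 1 on F1 thus had a change of the same sign on the other filters, and about as many were past 1 there as were not.

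The spots past 1 on both are the same 155 and 287 when picked on the other filters. The 538 spots with a rise over 1 on the other filters had a median of 0.57 on F1, where 76.4% were above 0 and 155 (28.8%) were over 1, against 6.41% of all spots. The 700 spots with a fall over 1 there had a median of -0.78 on F1, where 85.6% were below 0 and 287 (41%) were under -1, against 9.27% of all spots. Changes on F1 were narrower over all spots, with an SD of 0.839 against 1.03 on the other filters, so the medians and shares past 1 in the 2 directions are not on one scale.

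Few calls were left without F1. Of the 5738 spots, 20 were called (0.349%), 4 up and 16 down, and 1105 had an unadjusted p below 0.05. The median standard error of a change was 0.373 without F1 and 0.326 with it. Of these 20 spots, 19 were among the 294, and all 19 with a value on F1 had the same sign there. Their median change on F1 was 2.47 for the rises and -2.70 for the falls, against 2.83 and -3.15 on the filters that called them.

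The opposite setting, with the filter as a random block in the fit, gave the highest number of calls. It called 1534 spots (26.7%), 731 up and 803 down, and these held all 294. The correlation within a filter that it estimated was 0.820, and it rests on the 2 of the 7 filters that carried 2 hybridizations of the 9. The median size of a called change was 0.91 in this fit, against 1.61 in the first. Its fitted change correlated across spots at r = 0.960 with the change on F1 alone, which enters the fit, against 0.759 for the fit without the block. The fit without F1 also has fewer replicates, so neither count is a measure of the filter alone.

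The change varied with position on the array. The median change over the 24 print columns ranged from 0.24 in column 5 to -0.19 in column 13. Columns 1 to 8 had a median of 0.12, columns 9 to 16 of -0.05 and columns 17 to 24 of -0.10. Taken by replicate number, the medians of columns 1 to 8 were 0.11, 0.08 and 0.17, and those of columns 17 to 24 were -0.11, -0.16 and -0.02. Those of columns 9 to 16 were -0.0046, 0.03 and -0.13. The left columns were above the right ones in all 3, including the pair on F1, but in replicate 3 the middle columns were the lowest.

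Across the 16 rows the medians ranged from -0.13 to 0.07, and across the 16 positions within a block from -0.25 to 0.10. Columns 1 to 8 held 46 rises and 62 falls, and columns 17 to 24 held 22 rises and 59 falls. With the median of each print column removed, a setting added after the data were seen, 316 spots were called, 258 of them shared with the 294. With the median of each block removed, 346 were called and 218 shared. Whether the genes printed on the left differ from those on the right was not tested, since the files pair no spot with a gene.

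**Figure D5:**
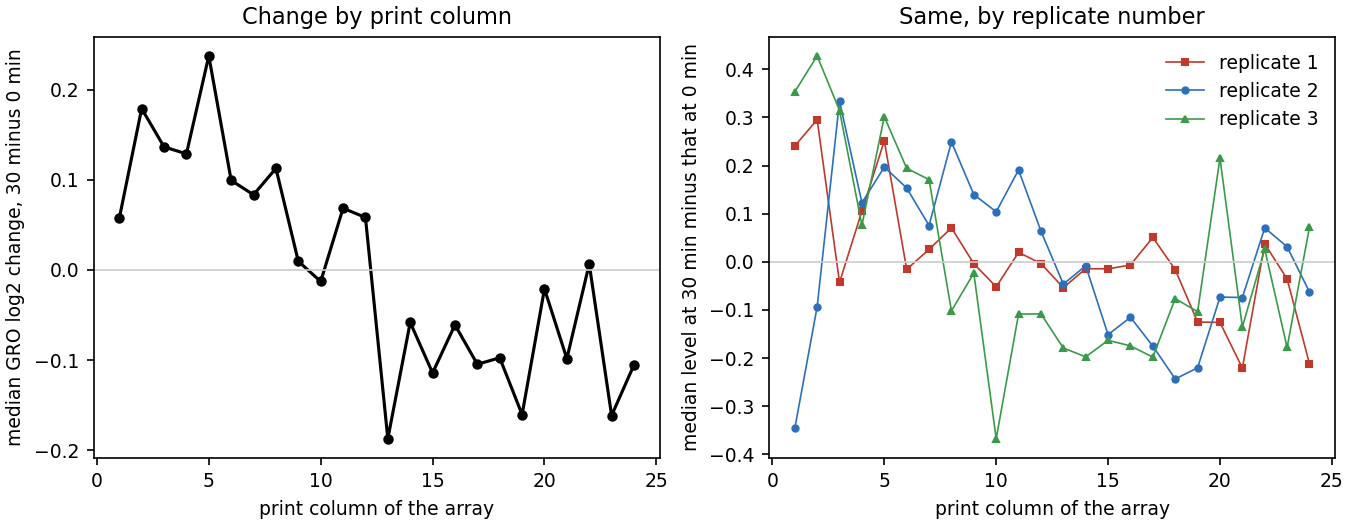
Left, median GRO log2 change (30 min minus 0 min) of the spots in each of the 24 print columns of the array, for all replicates together. Right, median level of the column at 30 min minus its median level at 0 min, for each replicate number (replicate 1 is filter F1). Values in columns 1 to 8 are mostly above 0 and those in columns 13 to 24 mostly below, within 0.24 of 0 in the left panel.

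RNAp ChIP, which used other hybridizations, moved in the direction of the run-on change at most called spots. At the 103 spots that rose in GRO, its median change was 0.40 and 77 (74.8%) were above 0, against 50.7% of all 5679 spots measured in both assays. At 190 of the spots that fell, its median change was -0.69 and 155 (81.6%) were below 0. The median over all spots was 0.01.

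By its own test, RNAp ChIP rose at 97 (1.66%) and fell at 206 (3.52%) of 5851 spots. Among the risen spots of GRO 14 also rose in RNAp ChIP and 0 fell, and among the fallen spots 64 fell and 1 rose. The call was therefore shared at 78 of 293 spots, and most spots called in GRO had an RNAp ChIP change in the same direction that did not pass the test. The median RNAp ChIP level of the fallen spots was -0.30, -0.30 and -0.41 at 30 min, against 0.53, 0.52 and 0.37 at 0 min, with no overlap between the times. That of the risen spots was 0.14, 0.21 and 0.19 at 30 min, against -0.03, -0.38 and -0.24 at 0 min.

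The named spots followed in total RNAP II, with a smaller change in each. RNAp ChIP changed by 1.80 (adjusted p = 6.57e-04) at R13 - C19 : 4 and by 1.50 (adjusted p = 0.0161) at R4 - C5 : 15 in limma. It changed by -4.21 (adjusted p = 6e-04) at R15 - C17 : 7 and by -3.77 (adjusted p = 3.37e-04) at R11 - C6 : 6. The difference between the assays was not tested. The labels of the RNAp ChIP samples conflict, in that title and description swap 30 and 60 min, and the description was followed. With the titles, the shared calls were 49 of 293, the median change was 0.11 at the risen and -0.25 at the fallen spots, and the directions were the same.

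Of the 406 spots left out, 220 had fewer than 2 usable ratios at both times, 102 at 30 min only and 84 at 0 min only. The genomic DNA was above 0 on fewer than 2 filters in 130 of them, and 197 had a run-on intensity above 0 in 2 or more replicates at each time. The run-on intensity itself was above 0 in fewer than 2 replicates at both times in 86. A run-on intensity of 0 in all 3 hybridizations at 30 min and above 0 in all 3 at 0 min was found in 10 spots, whose intensities at 0 min were 0.163 to 14.4. The reverse was found in 3 spots, with at most 13.6 at 30 min. These intensities lie far under the median of a hybridization, and no fold is given for them.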

How the data were processed

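GRO was analysed in 9 hybridizations (3 each at 0, 30 and 60 min) and RNAp ChIP in 9 pairs of IP and whole cell extract (WCE). The authors deposited one intensity per spot, the background-subtracted ARM Density from ArrayVision, read from 33P-labelled filters on a phosphorimager, with no normalization between hybridizations. The study's minimum over background could not be applied because the files hold no background values, and its rDNA scaling was not used. Only 0 was treated as missing. No value column was left unused (0). The number of replicates limits the precision, as no depth exists for arrays.

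Levels were log2 of run-on over genomic DNA of the same filter, or of IP over WCE, centred on the median of the hybridization, as the study did globally. The test of a change was limma's (version 3.58.1, R 4.3.3), from a single fit per assay to its 9 hybridizations, and p-values were adjusted over all spots by Benjamini-Hochberg and called below 0.05. The fit was tested on simulated data with independent errors. These hold no deviation shared by hybridizations on the same filter, so the effect of F1 on the calls was not covered. Summaries were computed in Python 3.11.15 with numpy 2.4.6, pandas 2.3.3 and scipy 1.17.1. The SD expected from replicates is the root mean square over spots of the error that the SDs within a time give to a change.

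The named spots are the 2 largest rises and 2 largest falls with 3 values at each time, groups that do not overlap, adjusted p below 0.05 with and without filter F1, and genomic DNA outside the dimmest 25%. Members, lists and tests were chosen with earlier results of these data known. Groups came from the titles for GRO and the descriptions for RNAp ChIP. Replicate numbers come from the file labels, and nothing says that they mark one culture. The deviations of samples with the same number correlated at r = 0.496, 0.128 and 0.172 for replicates 1, 2 and 3, each over 0.1, so the fit with the replicate number as a block is given beside the count of 294, which has none. Replicate 1 shares filter F1, and pairs with different numbers among replicates 2 and 3 gave 0.130 and 0.137. Alternatives covered the hybridizations used, the replicate and filter blocks, the denominator, normalization, low spots and an added offset of 10.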

Additional observations from a re-analysis of the deposited data

How the results depend on the processing

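The number of changed spots was 294. It was 82 in the fit of 6 hybridizations, 138 with the replicate block, 1534 with the filter as a random block, 20 without filter F1, 486 without the dimmest 25% of spots, and 108 to 183 with 1 hybridization left out. It stayed within 1.5 times of 294 in the other 9 alternatives, but a like count did not mean the same spots. Only 147 of the 237 calls without the genomic DNA ratio were among the 294. With the mean genomic DNA profile 139 of 220 were. The largest overlap was 293 of 298, for spots with 2 or more values at all 3 times. The replicate block changed the shared RNAp ChIP calls to 65, within that range, and no call of a named spot. The count of 78 shared RNAp ChIP calls was 12 of 20 with the spots called without F1, and 49 with the time points of the titles. The SD of the change was 0.850, 0.596 with the offset, and 0.862 to 0.973 with 1 hybridization left out.

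The median change of the highest group at 0 min was -0.55. It was -0.727 without F1, -0.275 without the genomic DNA ratio, -0.409 with the mean genomic DNA profile, -0.332 with quantile normalization, -0.329 without the dimmest 25% of spots, -0.416 with the offset, -0.333 ranked by replicate 1 and -0.331 ranked by replicates 2 and 3. That of the lowest group was 0.22. It was 0.345 without F1, 0.121 without the genomic DNA ratio, 0.351 with quantile normalization, 0.142 without the dimmest 25% of spots and 0.060 ranked by replicates 2 and 3. With 1 hybridization left out these medians were -0.733 to -0.505 and 0.186 to 0.374. The causes were not tested. The median of the lowest group was -0.17 when ranked by the mean of the levels at 0 and 30 min, a reversed direction. Ranked by RNAp ChIP at 0 min it was reversed too, at -0.12. No direction was reversed under the other alternatives run. The named spots kept their calls in the 19 or 20 alternatives that gave them a value, with an adjusted p of at most 0.0406 in limma, which the rule that chose them largely fixed. Signal near background limits the dimmest spots, where the residual SD was 1.15.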

Other observations

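A second filter carried hybridizations of different times. Replicate 3 at 0 min and replicate 2 at 60 min were both on filter F6. Their levels correlated across spots at r = 0.894, against 0.671 to 0.760 for the other 8 pairs of a hybridization at 60 min and one at 0 min, and their deviations from the means of their times correlated at r = 0.539. The SD of their difference was 0.683, against 0.991 to 1.17 for those 8 pairs. On both filters that were used at more than one time, the change on the shared filter was thus the least variable of the 9 pairs.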
